A study of Mus musculus with 3 samples.

Results

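The nuclear-encoded subunits of oxidative phosphorylation were taken as every gene on the array whose symbol starts with Ndufa, Ndufb, Ndufc, Ndufs, Ndufv, Uqcr, Cox4i, Cox5, Cox6, Cox7, Cox8 or Atp5, or is Sdha, Sdhb, Sdhc, Sdhd or Cyc1. The rule found 92 genes, read by 116 probes, among the 18350 genes that could be named on the array. Of these, 81 encode subunits of the 5 complexes and carry the results below; 8 are assembly factors (Cox7a2l and Ndufaf1 to Ndufaf7) and 3 are testis isoforms (Cox6b2, Cox7b2 and Cox8c). The rule uses no measured value.

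Oxidative phosphorylation takes electrons from NADH at complex I and from succinate at complex II, passes them through complex III and cytochrome c to oxygen at complex IV, and uses the resulting proton gradient to make ATP at complex V. Most subunits are encoded in the nucleus and imported; a core of complexes I, III, IV and V is encoded by the mitochondrial genome, which had no named probe on this array. Complex IV has subunits with a general form and a form found in contracting muscle: Cox6a1 and Cox6a2, Cox7a2 and Cox7a1, Cox8a and Cox8b. The muscle forms are known to replace the general ones as heart and skeletal muscle mature.

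The study measured total RNA of C2C12 cells, a mouse myoblast line, with 1 single-colour array for each of 3 groups. The myoblasts were untreated. The other cells came from C2C12 myotubes formed over 8 days in 2% horse serum, with AraC at 10 µM from day 2 to day 4 to kill cells still dividing, and then broken into single cells, called cellulates, with myoseverin for 48 h; the text of the series gives 20 µM of it and the treatment protocol 30 µM. The BIO cellulates were treated for 2 days with BIO, an indirubin that inhibits glycogen synthase kinase, at 2.5 µM by the sample labels and 10 µM by the series text. BIO was started 24 h after myoseverin. The neurogenic cellulates had the same steps, and then reversine at 250 nM for 48 h and 7 days of neural induction medium that held retinoic acid (all-trans) at 1.5 µM. Intact myotubes are not among the 3 arrays, so the step from myoblast to BIO cellulate covers fusion, fragmentation and BIO together.

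With 1 array per group there are no replicates and no test, so every ratio describes these 3 arrays. Signals are given as log2 of the array's processed intensity relative to the 75th percentile of its non-control spots, called the scaled log2 signal; a value of 0 is that percentile. Probes spotted 10 times gave 95% limits for the ratio of single spots of 1.40-fold between BIO cellulates and myoblasts, 1.32-fold between neurogenic and BIO cellulates, and 1.35-fold between neurogenic cellulates and myoblasts. These limits cover spot error alone, not culture, extraction or labelling. A 2-fold difference was the call. If only 1 array of a pair held a probe well above background, its fold is given as a minimum, taken against the dim probe's own signal or the array's lowest signal well above background, whichever was higher. A probe's signal was used to grade it as bright or dim, not to set the RNA of 1 gene against that of another. In these bulk samples fewer cells of a type and less RNA per cell cannot be told apart.

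The cells matched their muscle label: all 8 muscle markers examined (Myod1, Myog, Des, Acta1, Ckm, Tnnt3, Myh3 and Mb) were well above background on every array, and their summed scaled log2 level was 6.44 in myoblasts, 11.05 in BIO cellulates and 10.80 in neurogenic cellulates. The summed level of 4 markers of dividing cells was 5.91, 2.88 and 2.98, with 3, 3 and 4 of them well above background. For 3 fibroblast markers the sum was 8.83, 7.59 and 7.18. The fibroblast sum follows the bright Col1a1 probe; Dcn read -0.66, -0.64 and 2.06, higher in neurogenic cellulates alone, and Pdgfra was at background on all arrays. Of the 6 neuronal markers, 3, 4 and 3 were well above background, with summed levels of 3.43, 2.61 and 2.50, and Snap25 and Syp, which mark synapses, were at background on all arrays. In BIO cellulates against myoblasts 1 of 4 compared was at least 2-fold higher, by a bound (against 11.2% of all genes). Map2 was lower there, at -2.07 (against 6.01%). In neurogenic against BIO cellulates Map2 was at 0.86 and the other 3 compared were below 0. In neurogenic cellulates against myoblasts all 3 compared were below 0, with Map2 at -1.21. Glial markers summed to 0.12, 0.13 and -0.02 with 2 of 3 detected on each array, and the adipocyte sum lay between -1.40 and -0.77 with 1 of 4 detected. The array's share of spots well above background was 50.7%, 46.9% and 45.7%, and no spot was saturated. In BIO cellulates against myoblasts 6 of 8 muscle markers were at least 2-fold higher (against 11.2% of all genes). Myog, the lowest, had a log2 ratio of 0.31. All 3 division markers compared were at least 2-fold lower (against 6.01%). In neurogenic cellulates against myoblasts 7 of 8 muscle markers were higher (against 12.1%), with Myod1 at -0.03. Of 4 division markers there, 3 were lower (against 10%) and 1, at background in myoblasts, was higher. The part of these markers in the subunit values was not tested.

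Promoters are shown for muscle and general isoforms of complex IV, whose signals are set side by side below. RefSeq's promoter table (GRCm38.p6) held 71 promoters for 66 of the 81 subunit genes. Each line gives the 250 bases before the start of transcription, 5′ to 3′ on the gene's strand. Capitals mark matches, on either strand, to GCGCANGCGC (the core bound by NRF1, a regulator of respiratory genes), CCGGAAG (the ETS core bound by GABPA), the E-box CAGCTG (bound by myogenic factors such as MyoD), TATAAA, or the MEF2 motif.
Cox8b: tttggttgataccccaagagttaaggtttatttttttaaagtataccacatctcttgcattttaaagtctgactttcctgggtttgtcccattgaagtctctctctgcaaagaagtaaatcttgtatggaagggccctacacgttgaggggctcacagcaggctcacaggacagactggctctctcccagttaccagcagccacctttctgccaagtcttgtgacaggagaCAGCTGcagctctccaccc
Cox7a1: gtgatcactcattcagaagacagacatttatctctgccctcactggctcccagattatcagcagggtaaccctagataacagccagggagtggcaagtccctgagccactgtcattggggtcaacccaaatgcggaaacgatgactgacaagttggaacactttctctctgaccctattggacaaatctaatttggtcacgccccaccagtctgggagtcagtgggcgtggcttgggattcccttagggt
Cox8a: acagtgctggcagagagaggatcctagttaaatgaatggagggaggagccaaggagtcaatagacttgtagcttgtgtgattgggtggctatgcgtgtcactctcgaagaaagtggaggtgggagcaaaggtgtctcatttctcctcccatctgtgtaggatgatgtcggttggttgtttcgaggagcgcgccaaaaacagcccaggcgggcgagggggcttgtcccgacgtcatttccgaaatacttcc
Cox6a1: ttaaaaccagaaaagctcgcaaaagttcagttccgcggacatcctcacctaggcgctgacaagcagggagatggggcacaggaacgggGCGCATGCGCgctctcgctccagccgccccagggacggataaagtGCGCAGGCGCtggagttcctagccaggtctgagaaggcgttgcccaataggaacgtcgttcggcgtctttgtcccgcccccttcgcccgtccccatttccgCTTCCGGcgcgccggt
These windows lie at chr7:140900447-140900696 (Cox8b, minus strand), chr7:30183921-30184170 (Cox7a1, plus strand), chr19:7217617-7217866 (Cox8a, minus strand) and chr5:115348959-115349208 (Cox6a1, minus strand). The muscle gene Cox8b held 1 E-box, 19 to 14 bases before its start, and none of the other motifs. The general gene Cox6a1 held 2 NRF1 matches and 1 ETS match. Cox7a1 and Cox8a held none of the 5.

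Across the subunit promoters the NRF1 core was in 14 of 71, or 19.7%, against 3.74% of the 32851 promoters in the table. The ETS core was in 12, or 16.9%, against 6.91%. The E-box was in 6, or 8.45%, against 13.0%, TATAAA in 7, or 9.86%, against 12.4%, and the MEF2 motif in 0 against 2.92%. Genes with an NRF1 match included Sdha and Ndufb4 with 3 each, and Ndufa11, Ndufs5, Atp5c1 and Atp5k with 1 each. Sdhd, Atp5h and Cox6a1 held both the NRF1 and the ETS core. A match describes letters in this window and no binding was measured.

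The first comparison asked how the respiratory chain genes stood in cells made from myotubes relative to the myoblasts they started from. Most subunits were slightly higher in BIO cellulates. Of 78 subunits compared, 71 had a log2 ratio above 0 and 6 below, with a median of 0.35. Most single ratios were within the 95% limit of spot error, 0.49 on the log2 scale. The upper quartile of subunits measured on both arrays was 0.48. Of all 12829 genes compared, 6170 were above 0 and 5921 below, with a median of 0.00. Only 3 were at least 2-fold higher (3.85%, against 11.2% of all genes) and 0 were at least 2-fold lower (against 6.01%).

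By complex the medians were close to each other. They were 0.31 in complex I (34 subunits compared), 0.32 in complex II (4), 0.43 in complex III (9), 0.43 in complex IV (14) and 0.30 in complex V (17), and in complex V all 17 subunits had ratios above 0. Measured on both arrays, complex I ran from Ndufa12 at -0.14 to Ndufa1, a membrane-arm subunit, at 0.88. Ndufa1 had scaled log2 signals of 7.62 in myoblasts, 8.51 in BIO cellulates and 8.34 in neurogenic cellulates, so both cellulates were above the myoblasts; its other probe gave 0.61 for the first step. Complex II ran from the membrane anchor Sdhc at 0.24 to the iron-sulfur subunit Sdhb at 0.46. Complex III ran from Uqcrq at 0.21 to Uqcr11 at 0.61. Complex IV ran from Cox6a1 at -0.14 to Cox6a2 at 6.02, and complex V from Atp5j2 at 0.00 to Atp5k at 0.64.

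How large the median was, and its sign, rested on the scaling. Scaled to the array median, the subunit median was -0.35, with all genes at -0.65; relative to all genes it was then 0.30. Over the scalings tried it stayed between 0.30 and 0.50 above the median of all genes, but with no filter on dim probes it was 0.10 above.

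The 2-fold calls were Cox6a2, Ndufb5 and Cox8b. Cox6a2, the muscle form of subunit 6a at the edge of complex IV, had scaled log2 signals of -0.01 in myoblasts, 6.02 in BIO cellulates and 5.72 in neurogenic cellulates. It was low in myoblasts alone, and 65.0-fold higher in BIO cellulates and 52.9-fold higher in neurogenic cellulates than in myoblasts. Cox8b, the muscle form of subunit 8, read -4.57, -2.05 and -2.70 and was well above background in BIO cellulates alone. It was at least 3.21-fold higher there than in myoblasts, a bound that was below 2-fold after the array-median, quantile, cyclic loess and normexp scalings. Ndufb5, a membrane-arm subunit of complex I, read -5.06, -0.59 and -2.67 from 1 dim probe, and was also well above background in BIO cellulates alone. Its level there was at least 8.86-fold that in myoblasts and at least 3.96-fold that in neurogenic cellulates.

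**Figure D1:**
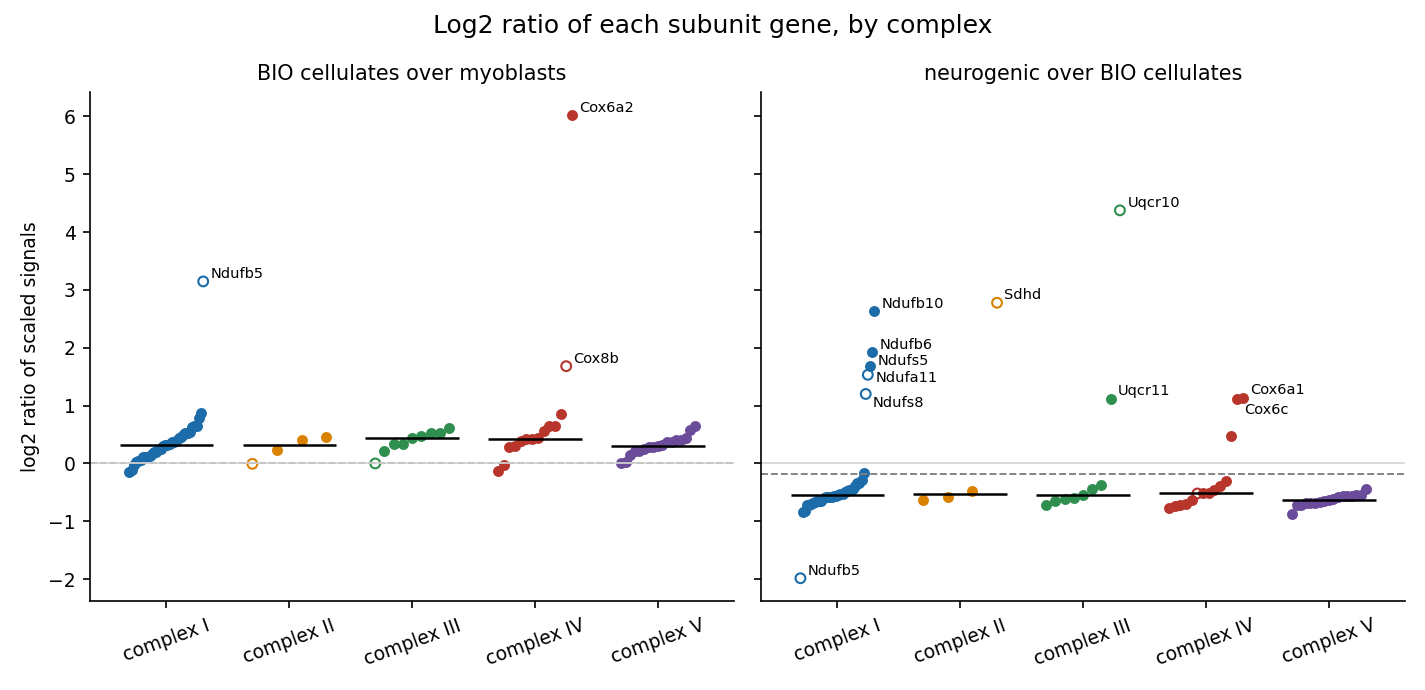
Log2 ratio of scaled signals for each subunit gene, by complex, for BIO cellulates over myoblasts (left) and neurogenic over BIO cellulates (right). Filled points were well above background on both arrays. Open points are lower bounds where only the first-named array was above background, and upper bounds where only the second was. Black bars are complex medians. The dashed line is the median of all genes (0.00 on the left, where it lies on the zero line, and -0.17 on the right). Most points lie in a narrow band above 0 on the left and below 0 on the right, with Cox6a2 at 6.02 on the left and a scatter of named genes above 1 on the right.

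Of the isoform pairs, that of subunit 6a differed most between myoblasts and cellulates. Cox6a1 had scaled log2 signals of 3.32 in myoblasts, 3.19 in BIO cellulates and 4.32 in neurogenic cellulates. The change in Cox6a2 exceeded that in Cox6a1 by 6.16 on the log2 scale in BIO cellulates against myoblasts, and by 4.72 in neurogenic cellulates against myoblasts. Between neurogenic and BIO cellulates the change in Cox6a2 was below that in Cox6a1, by a log2 difference of -1.44: Cox6a1 was 2.20-fold higher in neurogenic cellulates and Cox6a2 had a log2 ratio of -0.30.

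The pair of subunit 7a had similar ratios. The muscle form Cox7a1 read 0.52, 1.17 and 0.78 in myoblasts, BIO cellulates and neurogenic cellulates, and the general form Cox7a2 read 6.50, 6.92 and 6.16 on its brighter probe and 6.30, 6.83 and 6.21 on the other. Both were highest in BIO cellulates. The change in Cox7a1 exceeded that in Cox7a2 by 0.23 for BIO cellulates against myoblasts, by 0.37 for neurogenic against BIO cellulates and by 0.60 for neurogenic cellulates against myoblasts, each below a 2-fold difference; with normexp background correction the first became -0.03.

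The pair of subunit 8 was limited by the dim Cox8b probe. Cox8a, the general form, read 10.13 in myoblasts and 10.18 in neurogenic cellulates and was highest in BIO cellulates, with a log2 ratio of 0.57 for the first step and -0.52 for the second. Against it, Cox8b was higher by at least 1.11 in BIO cellulates against myoblasts, a bound that became -0.17 with normexp. For neurogenic cellulates against myoblasts Cox8b was at background on both arrays and gave no value.

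Other alternative forms changed by less than 2-fold wherever both arrays were above background. Cox4i1, the general form of subunit 4, read 8.90, 9.33 and 8.82, and its lung-type and hypoxia-linked partner Cox4i2 was at background on every array. The testis form Cox6b2 read 0.74, 0.82 and 0.47 beside 5.83, 6.21 and 5.48 for Cox6b1; Cox7b2 was well above background in myoblasts alone and Cox8c on no array. The 3 genes for the c-ring subunit of complex V, whose mature proteins are the same, had log2 ratios of 0.36 (Atp5g1), 0.24 (Atp5g2) and 0.41 (Atp5g3) for the first step and -0.72, -0.57 and -0.61 for the second. Outside the complexes, Slc25a4, the ADP/ATP carrier of muscle, and Slc25a5, its more general partner, had ratios of 0.24 and 0.25, then -0.50 and -0.69.

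**Figure D2:**
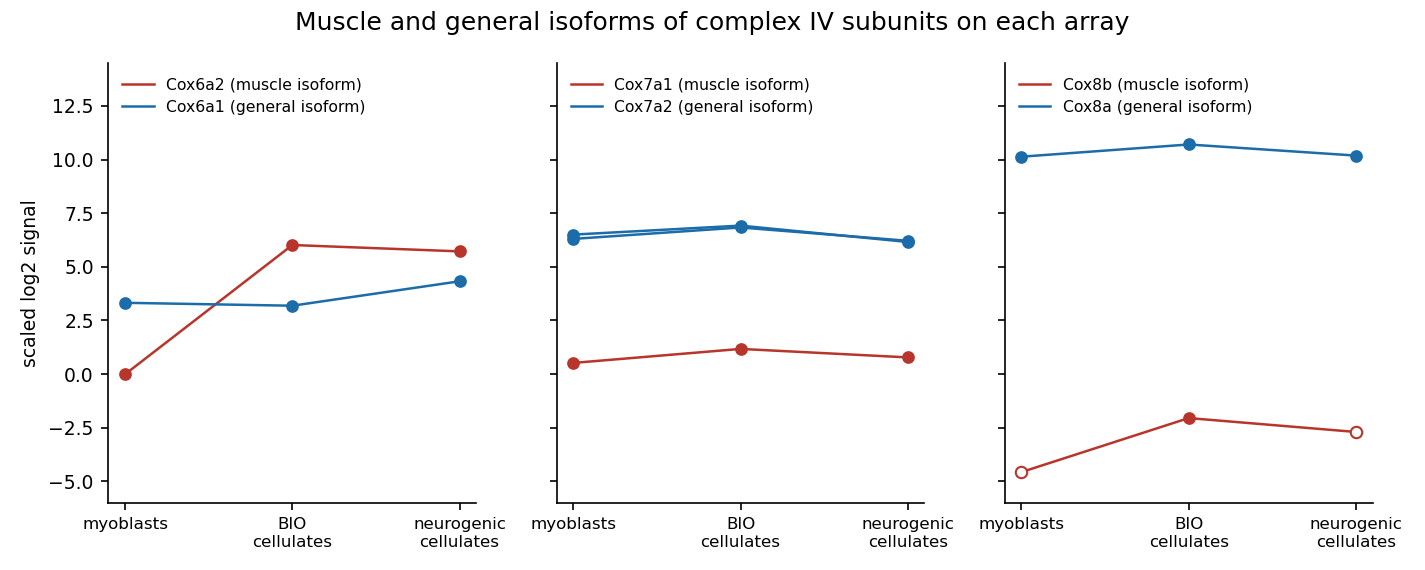
Scaled log2 signal of each probe of the muscle (red) and general (blue) isoforms of complex IV subunits 6a, 7a and 8 on the 3 arrays, 1 array per group; filled points were well above background and open points were not. The lines are to be read along each probe, not between probes: Cox6a2 stands at -0.01 in myoblasts and at 6.02 and 5.72 in the cellulates, while Cox7a1 stays between 0.52 and 1.17.

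The second comparison asked how cells kept in neurogenic conditions after BIO stood relative to the BIO cellulates. This step covers reversine, the neural induction medium with retinoic acid and the longer culture together. Most subunits were lower in neurogenic cellulates. Of 80 subunits compared, 69 had log2 ratios below 0 and 11 above, with a median of -0.57. Most genes were lower too: of all 12255 compared, 8297 were below 0 and 3897 above, with a median of -0.17. In complexes I to V the medians were -0.55, -0.52, -0.54, -0.52 and -0.63. All 17 complex V subunits were below 0, from Atp5mpl at -0.87 to Atp5md at -0.45. The size of the shift, though not its sign, rested on the scaling: the subunit median was -0.15 after quantile normalization and -0.13 after cyclic loess, which is -0.06 and -0.13 relative to all genes.

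The lowest subunit of each other complex, among those measured on both arrays, was Ndufa9 at -0.84, Sdhb at -0.63, the core protein Uqcrc1 at -0.72 and Cox7a2 at -0.76. The highest in complex II was the flavoprotein Sdha at -0.47. None of these reached 2-fold. Only Ndufb5 was at least 2-fold lower, by the bound already given (1.25% of subunits, against 1.8% of all genes).

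Set apart from this were 10 subunits at least 2-fold higher in neurogenic cellulates, 12.5% of those compared against 4.16% of all genes. That count includes 4 bounds (Ndufs8, Ndufa11, Sdhd and Uqcr10), which could be compared only because the neurogenic array was above background. Among the 74 subunits above background on both arrays, 6 were at least 2-fold higher, against 2.45% of all genes. The 10 were Ndufb10, Ndufb6, Ndufs5, Ndufs8 and Ndufa11 in complex I, Sdhd in complex II, Uqcr10 and Uqcr11 in complex III, and Cox6a1 and Cox6c in complex IV. All but Cox6a1 had scaled log2 signals of 0.71 or lower in both other groups. Uqcr10, a small complex III subunit, read -3.07 in myoblasts, -2.40 in BIO cellulates (at background) and 1.97 in neurogenic cellulates. It was at least 20.8-fold higher in neurogenic than in BIO cellulates. Sdhd, the membrane anchor of complex II, read -2.73, -4.24 (at background) and 0.04, at least 6.86-fold higher. In both, the neurogenic array alone was high.

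Ndufb10, a membrane-arm subunit, read -2.07, -2.04 and 0.60 and was 6.21-fold higher than in BIO cellulates. Ndufb6 read -1.23, -0.98 and 0.94, a 3.79-fold difference, and Ndufs5 read 0.16, 0.27 and 1.96, a 3.21-fold difference. All 3 had nearly equal signals in myoblasts and BIO cellulates. Both probes of Ndufa11 were at background in myoblasts and BIO cellulates and above it in neurogenic cellulates, at least 2.89-fold and 1.80-fold higher. Ndufs8, a subunit that holds iron-sulfur clusters, read -3.83 and -3.35, both at background, and -1.53, at least 2.30-fold higher. Uqcr11 read 0.10, 0.71 and 1.83, Cox6c read -0.37, -0.08 and 1.04, and the general isoform Cox6a1 is given above. Their folds over BIO cellulates were 2.17, 2.18 and 2.20. Cox7c, at 0.11, 0.42 and 0.89, also lay above 0 but with a log2 ratio of 0.47.

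Subunit probes were then grouped by brightness. The myoblast array, which this ratio does not use, was taken to grade brightness, with limits at 0 and 4 set after the values were seen. All 71 subunit probes at or above a scaled log2 signal of 4 had ratios below 0, from -0.87 to -0.17, with a median of -0.60 and an SD across probes of 0.13. Of the 2651 named probes of that brightness, 2247 were also below 0 and 404 above. Their median was -0.35 and their SD 0.37, so the bright subunit probes were lower by 0.25 and lay closer together. After quantile normalization 65 of the 71 were below 0 and the gap was -0.10; after cyclic loess 64 were below 0 and the gap was -0.16.

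Among dim probes the share depends on which could be compared. Of 20 subunit probes below 0 in myoblasts, 3 were at background on both arrays and 12 were at least 2-fold higher in neurogenic cellulates. Of those 12, 8 were at background in BIO cellulates, so they entered through the neurogenic array where they were high, and their direction is no support. Above background on both arrays were 6 probes, of which 4 were at least 2-fold higher (Ndufb10, Ndufb6, Cox6c and 1 of Ndufv3), against 4.29% of all named probes of that brightness. Between 0 and 4, 3 of 11 were at least 2-fold higher, against 1.84% of all. Keeping only the 70 subunits whose probe was at or above 0 in myoblasts, a limit added after the data were seen, left 3 genes at least 2-fold higher and 0 lower. Of all named probes, 1.84% between 0 and 4 and 0.528% at or above 4 were at least 2-fold higher. At least 2-fold lower were 95 of 6267 and 63 of 2651. The same 71 bright subunit probes had a median of 0.36 for BIO cellulates over myoblasts, with 67 above 0. All 2651 probes of that brightness had a median of -0.21, with 874 above 0. The myoblast array both graded the probes and formed that ratio.

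**Figure D3:**
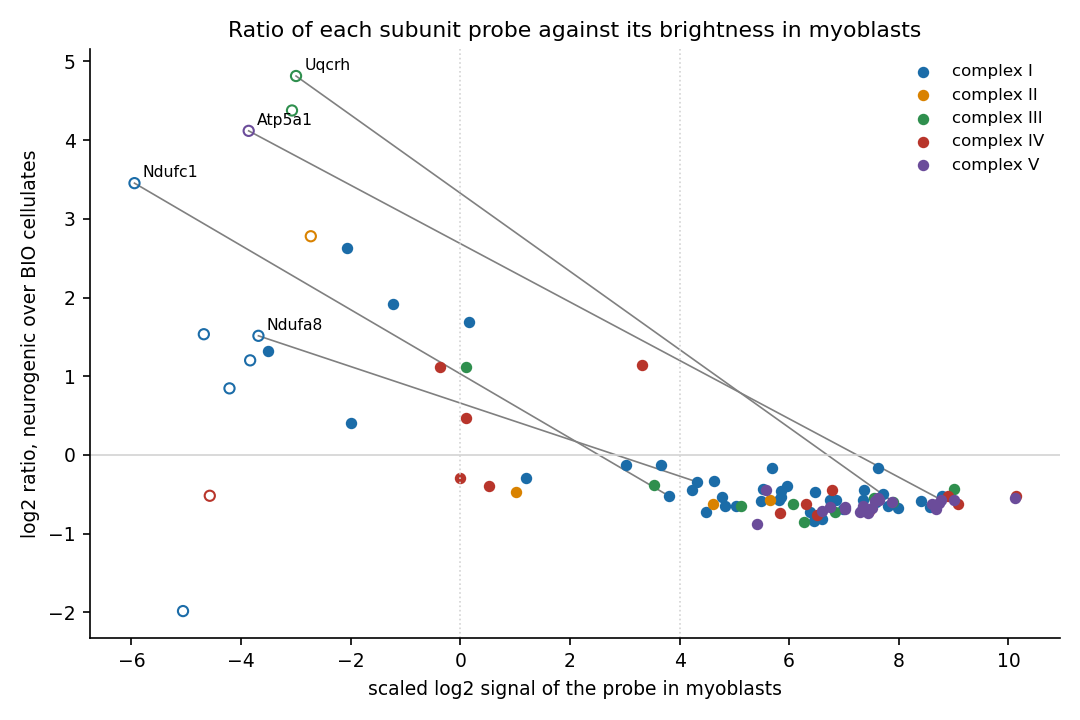
Log2 ratio of neurogenic over BIO cellulates for each subunit probe against its scaled log2 signal in myoblasts, coloured by complex. Open points are lower bounds where only the neurogenic array was above background, and upper bounds where only the BIO array was. Dotted lines mark 0 and 4, and grey lines join both probes of 4 genes. The 71 probes at or above 4 lie between -0.87 and -0.17, and of the probes below 0, 4 filled points and 8 open points lie at or above 1.

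Some genes had more than 1 probe. With at least 2 probes above background on both arrays, 1 of 11 genes had probes that differed by 1 or more on the log2 scale in neurogenic against BIO cellulates, and 1 of 11 in BIO cellulates against myoblasts; in both it was Ndufv3. In neurogenic cellulates against myoblasts 2 of 13 such genes differed by 1 or more, Ndufv3 and Uqcrh. In neurogenic against BIO cellulates 4 more genes differed by a bound, Uqcrh, Atp5a1, Ndufc1 and Ndufa8. Their dim probes were at background in BIO cellulates and could be compared there only by being above background in neurogenic cellulates. A direction above 0 in that comparison was thus fixed by that filter. Uqcrh, the hinge subunit of complex III, read 7.90, 8.33 and 7.74 in myoblasts, BIO and neurogenic cellulates on its bright probe, a log2 ratio of -0.60 for neurogenic over BIO cellulates. Its dim probe read -3.00, -3.25 (at background) and 2.08, at least 28.1-fold higher. Against myoblasts, where this probe was dim but well above background, it was 33.8-fold higher in neurogenic cellulates. The bright probe had a log2 ratio of -0.17 there. Atp5a1, the alpha subunit of the catalytic head of complex V, read 8.77, 9.05 and 8.48 on its bright probe, a ratio of -0.57. On its dim probe it read -3.86 and -4.17, both at background, and 1.38, at least 17.4-fold higher. The bright probes of both genes were slightly lower in neurogenic cellulates.

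Ndufc1 read 3.81, 3.78 and 3.26 on its bright probe, a ratio of -0.52, and -5.94 and -4.27, both at background, and 0.72 on its dim one, at least 11.0-fold higher. Ndufa8 gave -0.34 on its bright probe, and its dim probe was above background in neurogenic cellulates alone, at least 2.85-fold higher. The 3 probes of Ndufv3, a flavoprotein-arm subunit, gave -0.29, 0.40 and 1.32, in order from the brightest to the dimmest in myoblasts. That dimmest probe was also the exception in BIO cellulates against myoblasts, at 1.36 against 0.03 and 0.19. The other 10 genes with at least 2 probes above background on both arrays differed by at most 0.32 between probes in neurogenic against BIO cellulates. Among the 10 genes higher in neurogenic cellulates, Ndufa11 alone had a second probe, which was also at background in myoblasts and BIO cellulates. The other 9 had a single probe, so no other probe of the same gene could be set beside it. Probe sequences were not used here. Some members have a pseudogene in the annotation, whose transcripts a probe could share. By a -ps suffix on the member's symbol these were Atp5c1, Atp5k, Atp5l, Atp5pb, Cox5b, Cox7c, Ndufa12, Ndufab1, Ndufs5 and Uqcrh. The annotation also held the pseudogenes Ndufa11b, Cox6c2 and Ndufs6b, close in name to Ndufa11, Cox6c and Ndufs6.

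**Figure D4:**
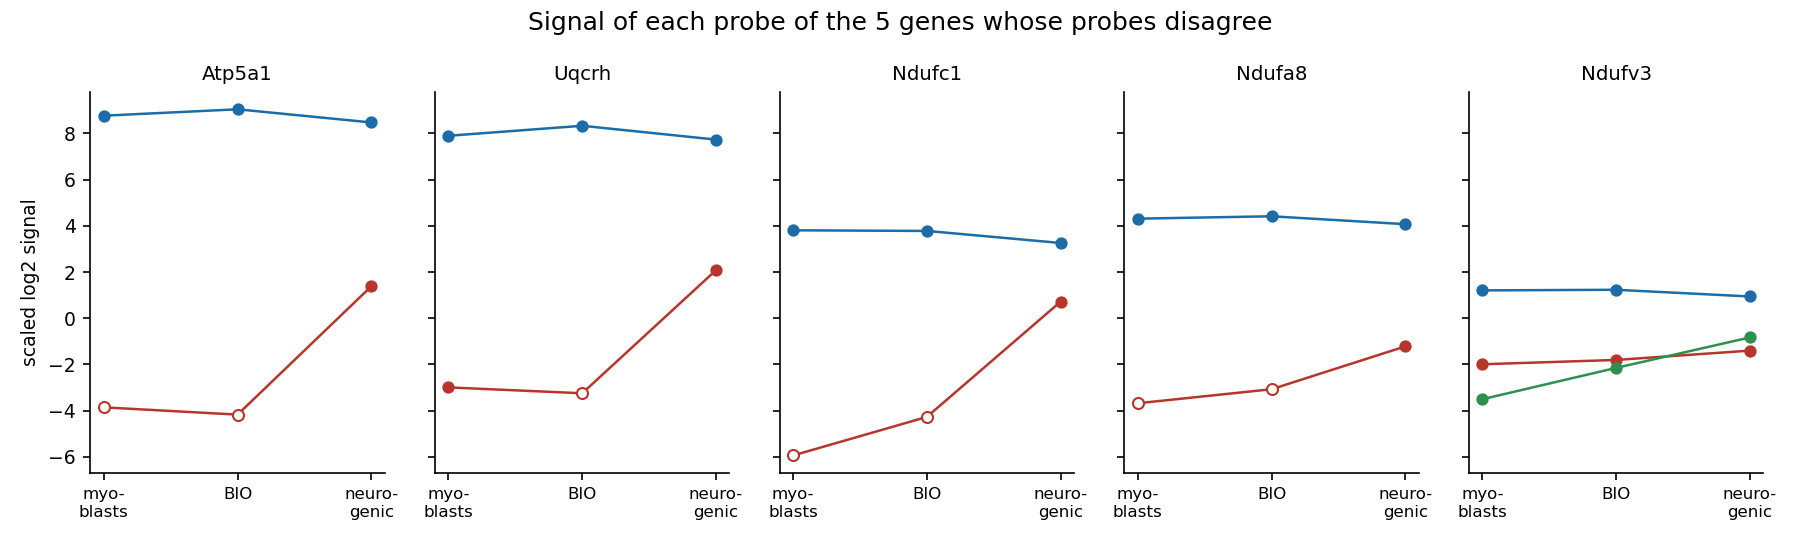
Scaled log2 signal of every probe of the 5 genes whose probes differ by at least 1 in log2 ratio, on the 3 arrays; each line is 1 probe, filled points were well above background and open points were not. The brightest probes fall from BIO to neurogenic cellulates, by log2 ratios of -0.29 (Ndufv3) to -0.60 (Uqcrh). Meanwhile 1 dim probe of each gene climbs on the neurogenic array, as for Uqcrh from -3.25 to 2.08. The dimmest Ndufv3 probe also climbs from myoblasts to BIO cellulates, by 1.36.

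The third comparison set neurogenic cellulates against myoblasts; it shares an array with each of the others. Of 78 subunits compared, 56 were below 0 and 22 above, with a median of -0.18. Of all 12855 genes compared, 6841 were below 0 and 5039 above, with a median of -0.06. The medians were -0.23, -0.12, -0.09, 0.05 and -0.33 for complexes I to V. This direction did not hold across scalings: the subunit median was 0.30 after quantile normalization, 0.35 after cyclic loess and 0.15 when the 75th percentile was taken over probes detected on all arrays.

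At least 2-fold higher were 11 subunits (14.1%, against 12.1% of all genes): Cox6a2 and the 10 genes that were higher than in BIO cellulates, with Ndufa11 and Ndufs8 as bounds. None was 2-fold lower (0%, against 10% of all genes). Scaled to the array median, 8 subunits were higher (10.3%, against 5.05% of all genes) and 27 lower (34.6%, against 38.9%). The median of all genes was then -0.79. Among subunits measured on both arrays, the lowest of each complex were the core subunit Ndufs3 at -0.76, Sdhc at -0.34, the Rieske protein Uqcrfs1 at -0.31, Cox7b at -0.47 and Atp5c1, the gamma subunit of the rotor, at -0.71. The highest were Ndufb10 at 2.67, Sdhd at 2.77, Uqcr10 at 5.04, Cox6a2 at 5.73 and Atp5k at -0.0019. Against myoblasts the folds were 33.0 for Uqcr10, 6.83 for Sdhd and 6.37 for Ndufb10.

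Other genes of the pathway were read from fixed lists. The 11 named genes for the electron carrier and ATP exchange gave 10 that could be compared; their medians were 0.35 in BIO cellulates against myoblasts and -0.51 in neurogenic against BIO cellulates. Ckmt2, a creatine kinase that sits in mitochondria of striated muscle, read -3.20, 7.89 and 7.38 in myoblasts, BIO and neurogenic cellulates. It was 2174-fold higher in BIO cellulates than in myoblasts, and both cellulates were high. Atpif1, the inhibitor of ATP synthase, read -3.24, -1.94 and 2.37, 19.9-fold higher in neurogenic than in BIO cellulates, from a probe as dim as those described above. Cytochrome c itself (Cycs) read 7.60, 7.91 and 7.40, and the outer membrane channel Vdac1 read 7.16, 7.55 and 6.90, both highest in BIO cellulates.

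Of 17 regulators of mitochondrial biogenesis compared in BIO cellulates against myoblasts, 1 was at least 2-fold higher (5.88%, against 11.2% of all genes) and 0 lower (against 6.01%), with a median of 0.04. The one was Esrra, an orphan nuclear receptor that binds respiratory genes, at 5.57, 6.80 and 6.43, 2.33-fold higher. The coactivator Ppargc1a read -0.72, -0.71 and -1.02, and its relative Ppargc1b 2.81, 3.32 and 3.64. Nrf1 read -2.07, -1.89 and -2.06. Tfam, which packages and transcribes mitochondrial DNA, read 3.08, 2.72 and 2.40, lowest in neurogenic cellulates. Gabpa read -0.68, -1.48 and -0.96, lowest in BIO cellulates. In neurogenic against BIO cellulates 0 of 16 were 2-fold higher or lower, against 4.16% and 1.8% of all genes.

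Assembly factors and enzymes of the citric acid cycle lay between the subunits and all genes in the first step. For 37 assembly factors the median was 0.16, with 1 at least 2-fold higher (2.70%, against 11.2% of all genes). That one was Sco1, a copper chaperone of complex IV, by at least 2.88-fold. For 12 citric acid cycle enzymes the median was 0.18, with 0 at least 2-fold higher or lower, against 11.2% and 6.01% of all genes. In neurogenic against BIO cellulates the medians were -0.33 over 39 assembly factors and -0.60 over 13 enzymes. There, 1 assembly factor was at least 2-fold higher (2.56%, against 4.16% of all genes), Surf1 of complex IV, by at least 2.07-fold. Of the enzymes, 1 was higher and 1 lower (7.69% each, against 4.16% and 1.8%). The enzyme Idh3a was at least 2.29-fold higher, again from a probe at background in the other cells. Idh2 was lower, at 3.11, 2.96 and 1.76, a log2 ratio of -1.20. For mitochondrial ribosomal proteins the median was -0.01 over 67 genes in the first step and -0.35 over 75 in the second, where 9 were at least 2-fold higher (12%, against 4.16% of all genes and 12.5% of the subunits) and 1 lower. Of these 9, 6 were bounds, with the probe at background in BIO cellulates.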

How the data were processed

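Total RNA of 3 cultures was labelled with Cy3 and hybridised to single-colour Agilent mouse arrays (design 014868). Per the file headers, the deposited intensity values come from Feature Extraction 10.7.3.1, whose processed signal is background-corrected; annotation used mm9. The authors' deposited table of log2 values equals the log2 intensity plus a constant per array (0.00, 0.67 and 0.23; column medians 7.42, 7.77 and 7.88) and was an alternative. Median signals with local background served the normexp alternative.

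Here log2 processed signals were scaled to each array's 75th percentile over 43379 non-control spots (181, 115 and 156 intensity units). Spots of a probe were averaged without outlier flags. A probe was well above background when most of its spots were. A gene took its brightest probe over the 3 arrays. Accessions named 26918 of 41174 probes, by RefSeq tables; 24 of 116 symbols of the rule had no named probe. Python 3.11.15, R 4.3.3 and limma 3.58.1 were used, and the ratio code was tested on simulated data. The number of arrays limits the precision. Named genes were members at least 2-fold different by any probe, isoform pairs, genes with disagreeing probes, and the highest and lowest subunit of each complex; Cox5b and others added for context were chosen after their values were seen. Members and lists were chosen with earlier results of these data known.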

Additional observations from a re-analysis of the deposited data

How the results depend on the processing

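Each comparison rests on 1 array per group, so no replicate could be left out. No paired analysis was possible because each group has a single array. Signals near background limit the dim probes. Main counts were 3, 10 and 11 subunits at least 2-fold higher, and 0, 1 and 0 lower. They are for BIO cellulates against myoblasts, neurogenic against BIO cellulates and neurogenic cellulates against myoblasts, in that order. Relative to the main setting, the settings named here moved a count by over 1.5 times or a value by more than 1 SD of the spot error. That SD, of a log2 ratio of single spots, was 0.25, 0.21 and 0.22 in the same order, smaller than the 95% limits given above. The cause was not tested except where the setting itself leaves genes out.

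BIO cellulates against myoblasts had 5 subunits higher with the percentile over probes detected on all arrays (Cox5b and Ndufa1 were added), and 1 with the authors' deposited values or with genes above background on both arrays, which both leave out bounds. With no dim filter 1 was lower. At 1.5-fold, 13 were higher (16.7% of subunits, against 20.7% of all genes). The subunit median was -0.35 with array-median scaling.

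Neurogenic against BIO cellulates had 6 higher and 0 lower with the deposited values or with genes above background on both arrays. Among probes at or above the 75th percentile in myoblasts 3 were higher and 0 lower. Of all named probes, 1.84% with a myoblast signal from 0 to 4 and 0.528% at or above 4 were higher. With normexp 0 were lower. At 1.5-fold, 35 were lower, against 10.3% of all genes. The median was -0.15 (quantile), -0.13 (cyclic loess) and -0.14 (normexp). The 10 genes higher in the main setting were also higher under 6 of the alternatives, among them quantile normalization and cyclic loess.

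Neurogenic cellulates against myoblasts had 27 lower with array-median scaling (34.6% of subunits, against 38.9% of all genes). At 1.5-fold, 5 were lower (6.41%, against 23.6% of all genes). The median was -0.91 (array median), 0.15 (percentile over detected probes), 0.30 (quantile), 0.35 (cyclic loess) and 0.30 (normexp).

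For isoform differences, the values in BIO cellulates against myoblasts are given as BM, in neurogenic against BIO cellulates as NB and in neurogenic cellulates against myoblasts as NM. Cox6a2 minus Cox6a1 became 5.46 (BM) and 4.14 (NM) with normexp. Cox7a1 minus Cox7a2 became -0.0280 (BM), 0.045 (NB) and 0.017 (NM) with normexp, 0.13 (NB) and 0.28 (NM) with quantile normalization, 0.10 (NB) and 0.28 (NM) with cyclic loess, and 0.35 (NM) with the other Cox7a2 probe. Cox8b minus Cox8a became 0.55 (quantile), 0.40 (cyclic loess), -0.17 (normexp) and 1.95 (no dim filter) for BM, and -0.62 (quantile) and -0.51 (cyclic loess) for NB. Of 1143 values of single genes and complexes under alternatives, 780 moved by less than 1 SD of the spot error, 363 by more and 0 changed sign from a call.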
